A study of Homo sapiens with 6 samples.

Results

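The 9 genes HLA-B, HLA-C, HLA-E, B2M, TAP1, TAP2, TAPBP, PSMB8 and PSMB9, which make MHC class I molecules and load them with peptide, were followed on 6 Affymetrix HG-U133 Plus 2.0 arrays. They were taken by name, with every probe set annotated to them: 23 of the 54613 probe sets tested, and 9 of the 19775 genes tested. The choice was made with earlier results of these data known, so the counts below describe a chosen set. The cells are the 1833 subline of MDA-MB-231, an established human breast cancer line, and the subline is known for growing in bone. Of the arrays, 3 are of control cells, which carried the vector per the series' design text, and 3 are of cells transduced with a lentiviral vector for S153E-RKIP and kept in 0.5 µg/ml puromycin. The labels name puromycin for the S153E-RKIP cells only, so the drug and the mutant cannot be told apart as far as the labels go. Serum was 10% for all 6 samples. RKIP, the product of PEBP1, binds Raf-1, and the S153E mutant is described by the series as the stronger Raf-1 inhibitor. The comparison asks which genes the mutant regulates. The labels call the samples biological replicates without saying whether they came from separate transductions or cultures, so the p-values reflect only how far these samples scatter, which may in part be technical scatter.

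Class I molecules sit on nearly all nucleated cells and show fragments of the cell's own proteins to CD8 T cells. A heavy chain, such as HLA-B, HLA-C or HLA-E, pairs with beta-2 microglobulin, the product of B2M. The immunoproteasome subunits encoded by PSMB8 and PSMB9 help cut proteins into peptides, the transporter made of TAP1 and TAP2 carries them into the endoplasmic reticulum, and tapasin, encoded by TAPBP, holds an empty heavy chain beside the transporter while it is loaded. Interferons, acting through STAT and IRF factors, and NF-kB are textbook activators of this gene set.

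RefSeq promoter sequences (GRCh38.p14) were at hand for 8 of the 9 genes, HLA-E being the one without. The stretches shown hold the letters of the elements for which class I promoters are known and lie before the start of transcription, 5′ to 3′ on the strand of the gene. Capitals mark every match, on either strand, to GAAANNGAAA (the core of an interferon-stimulated response element), the kappa-B consensus, TGACG (the core of a cAMP response element) or CCAAT. Neighbouring matches can overlap, as the 2 kappa-B matches of HLA-B do. The coordinates are chr6:31357223-31357364, chr6:31272136-31272292, chr6:32853759-32853954, chr6:32838762-32838805 and chr6:33314079-33314142 on the minus strand and chr6:32853942-32854060 and chr15:44711365-44711480 on the plus strand.
HLA-B: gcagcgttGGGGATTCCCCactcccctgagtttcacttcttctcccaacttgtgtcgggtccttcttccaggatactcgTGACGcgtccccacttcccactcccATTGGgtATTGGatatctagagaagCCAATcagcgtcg
HLA-C: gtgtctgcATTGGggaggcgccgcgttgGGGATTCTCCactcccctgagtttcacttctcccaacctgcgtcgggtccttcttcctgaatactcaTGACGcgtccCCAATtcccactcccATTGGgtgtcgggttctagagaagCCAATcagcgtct
B2M: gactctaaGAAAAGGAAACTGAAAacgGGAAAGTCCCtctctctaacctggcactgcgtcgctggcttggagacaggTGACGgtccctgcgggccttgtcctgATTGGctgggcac
TAP1: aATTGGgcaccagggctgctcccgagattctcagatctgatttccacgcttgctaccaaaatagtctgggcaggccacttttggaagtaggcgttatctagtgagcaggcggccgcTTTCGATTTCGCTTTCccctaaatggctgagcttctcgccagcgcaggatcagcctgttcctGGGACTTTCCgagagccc
PSMB9: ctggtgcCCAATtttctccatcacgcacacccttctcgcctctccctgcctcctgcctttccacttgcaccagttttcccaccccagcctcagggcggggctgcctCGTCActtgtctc
TAP2: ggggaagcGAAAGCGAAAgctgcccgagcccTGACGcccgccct
TAPBP: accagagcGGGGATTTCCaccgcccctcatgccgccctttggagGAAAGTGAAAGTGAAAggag

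TAP1 and PSMB8 have 2 annotated starts each, and TAP1 is shown at its outer one. In the 250 bases before any start, 4 of the 8 genes held the interferon core (B2M, TAP1, TAP2 and TAPBP), against 3.02% of all 35116 promoters in the table. The kappa-B consensus was found in 5 of the 8 (HLA-B, HLA-C, B2M, TAP1 and TAPBP), against 9.96% of all promoters. TGACG was found in 6 of 8 genes and CCAAT in 5 of 8, against 21.2% and 32.0% of all promoters. The upstream sequences of HLA-B and HLA-C were 89.0% identical over 254 aligned columns. A gene was counted if any of its starts held a match, while the shares over all promoters count each start by itself. TAP1 and PSMB9 start on opposite strands with 487 bases between their starts, so that the promoter windows share 13 bases. The CCAAT match of TAP1 and that of PSMB9 are the same site within these bases, counted for both genes. Of the 9 genes, 8 lie on chromosome 6, in the order HLA-E, HLA-C, HLA-B, TAP2, PSMB8, TAP1, PSMB9 and TAPBP, and B2M lies on chromosome 15. A match is a description of the letters and not a measured binding site. Only exact matches were counted. A gene without one, such as HLA-B or HLA-C for the interferon core, can still hold a variant form of the element.

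Levels are given as log2 RMA signals and differences as S153E-RKIP less control, on the same scale. Array medians ran from 5.60 to 5.62 in control and from 5.63 to 5.67 in S153E-RKIP, so they too were higher on the S153E-RKIP arrays. The groups rest on the sample titles. PEBP1, the introduced gene, was not higher on the treated arrays: its 3 probe sets had differences of -0.13 to -0.082 and none was called. Whether those probe sets lie within the introduced sequence was not analysed here. Another label of the treated samples, the source name, gives shRNA against HMGA2 in place of RKIP, and the 9 HMGA2 probe sets had differences of -0.26 to 0.016 with none called. Directions therefore rest on the label S153E-RKIP. Of 11 markers fixed for the MDA-MB-231 line, VIM, CD44, CAV1, KRT8 and KRT18 were above the median level of all genes (6.64). PGR and CDH1, which the line is known to lack, had levels of 4.04 and 4.18, and ESR1, also known to be lacking, lay at that median (6.65). EPCAM, ERBB2 and GATA3, listed as low, lay above it.

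All 23 class I probe sets had a higher mean on the arrays labelled S153E-RKIP, by 0.015 to 0.29 on the log2 scale, or 1.01-fold to 1.22-fold. None of the 23 was called at an adjusted p under 0.05 (limma, Benjamini-Hochberg over all 54613 probe sets), where 1.05% of all probe sets were called and 0.366% were called higher. The smallest adjusted p among them was 0.0656, for PSMB9. At an unadjusted p under 0.05 there were 12 of 23, all higher, against 6.34% of all probe sets higher at that level. In 13 of 23 all 3 S153E-RKIP arrays lay above all 3 control arrays, against 8.09% of all probe sets, and in none did they lie below (9.06%). A difference above 0 was seen in 53.6% of all probe sets. The members' median difference was 0.16, against 0.010 over all probe sets and -0.020 over probe sets above the median level.

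With 1 probe set a gene, the brightest, PSMB9 rose and was the only 1 of the 9 genes called, where 1.9% of all genes were called and 0.688% were called higher. PSMB9 had a difference of 0.29 (SE 0.054, 95% CI 0.17 to 0.41, limma adjusted p = 0.0377). All 9 genes had a difference above 0 and their median was 0.19, against 0.010 over all genes. At an unadjusted p under 0.05 there were 7 of 9 genes, all higher, against 7.75% of all genes higher. Groups did not overlap in 7 of 9, against 9.31% of all genes with S153E-RKIP higher. The call of PSMB9 was lost whichever array was left out (adjusted p of 0.0631 to 0.161), with a replicate block (0.0828) and with equal array medians (difference 0.25, adjusted p = 0.0651). Equal medians also moved the share of higher calls over all probe sets from 34.8% to 24.2%.

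**Figure D1:**
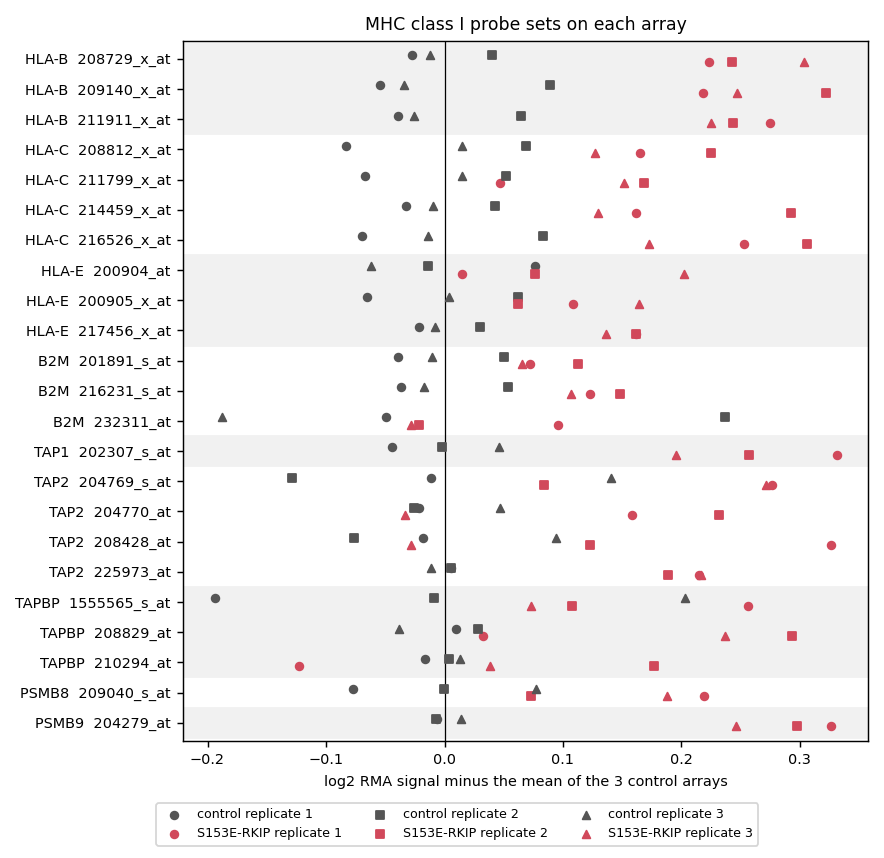
Log2 RMA signal of each of the 23 class I probe sets on each array (horizontal axis), less the mean of the 3 control arrays of that probe set. Grey marks are control and red marks S153E-RKIP arrays, and the shape gives the replicate number. The red marks lie to the right of all grey marks in 13 probe sets, among them the 3 of HLA-B and those of TAP1 and PSMB9.

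Among the heavy chains, HLA-B, which presents peptides to CD8 T cells, was read by 3 probe sets. The brightest, 209140_x_at, read 11.49, 11.63 and 11.51 on the control arrays (replicates 1, 2 and 3, the order used throughout) and 11.76, 11.86 and 11.79 on the S153E-RKIP arrays. All 3 S153E-RKIP arrays were above the highest control array, replicate 2, by 0.13 or more. The difference was 0.26 (SE 0.067, 95% CI 0.11 to 0.42, adjusted p = 0.149). The other probe sets of HLA-B, 208729_x_at and 211911_x_at, had differences of 0.26 (SE 0.060, adjusted p = 0.116) and 0.25 (SE 0.061, adjusted p = 0.136), also without overlap. The mean of the 3 probe sets, fitted over all genes, was called (0.26, SE 0.051, adjusted p = 0.0436).

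HLA-C, a heavy chain read by both T cells and natural killer cells, was read by 4 probe sets. The brightest, 214459_x_at, had control levels of 11.58, 11.66 and 11.61 and S153E-RKIP levels of 11.78, 11.91 and 11.75. The groups did not overlap, with S153E-RKIP replicate 2 the highest. The difference was 0.19 (SE 0.067, adjusted p = 0.278). Over the 4 probe sets it ran from 0.12 to 0.24 (adjusted p of 0.189 to 0.461). Only 211799_x_at overlapped, where S153E-RKIP replicate 1 (10.89) lay under control replicate 2 (10.90).

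HLA-E, a less variable heavy chain that binds the CD94 and NKG2 receptors of natural killer cells, was read by 3 probe sets. Its brightest probe set, 200905_x_at, had levels of 11.05, 11.18 and 11.12 in control and 11.22, 11.18 and 11.28 in S153E-RKIP. Control replicate 2 and S153E-RKIP replicate 2 had the same level, so the groups touched. The difference was 0.11 (SE 0.064, 95% CI -0.035 to 0.26, adjusted p = 0.490). The other probe sets had differences of 0.098 (200904_at, overlapping) and 0.15 (217456_x_at, without overlap).

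Each of the 23 probe sets is annotated to 1 gene, and 0 are annotated to several. All 3 of HLA-B, all 4 of HLA-C and 2 of the 3 of HLA-E carry the suffix _x_at, which marks probes that can also pair with other transcripts, so signal from one heavy chain can enter another's value. These 9 had a median difference of 0.19, against 0.014 over all 4207 such probe sets, and the 14 members without the suffix had one of 0.14. On all 9, control replicate 2 was the highest and control replicate 1 the lowest of the control arrays. Outside the HLA genes control replicate 2 was highest on 4 of 13 member probe sets and control replicate 1 lowest on 6. Only 200904_at reads an HLA gene without that suffix, and its difference was 0.098 (SE 0.073, adjusted p = 0.588), moving between 0.045 without S153E-RKIP replicate 3 and 0.14 without S153E-RKIP replicate 1.

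B2M encodes the light chain shared by class I heavy chains. Its brightest probe set, 201891_s_at, read 13.40, 13.49 and 13.43 in control and 13.52, 13.56 and 13.51 in S153E-RKIP. The lowest S153E-RKIP array was 0.016 above the highest control array. The difference was 0.083 (SE 0.059, 95% CI -0.052 to 0.22, adjusted p = 0.572). A probe set of similar brightness, 216231_s_at, had a difference of 0.13 (SE 0.059, adjusted p = 0.403). The dim 232311_at, at a mean of 4.25, had one of 0.015 (SE 0.11).

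TAP1, one chain of the peptide transporter, had levels of 8.26, 8.31 and 8.35 in control and of 8.64, 8.57 and 8.50 in S153E-RKIP on its single probe set. All 3 S153E-RKIP arrays lay above the control arrays. The difference was 0.26 (SE 0.064, 95% CI 0.11 to 0.41, adjusted p = 0.136). TAP2, its partner, was read by 4 probe sets with differences of 0.12 to 0.21. The brightest, 225973_at, had the smallest standard error of the 23 and read 10.55, 10.55 and 10.53 in control and 10.76, 10.73 and 10.76 in S153E-RKIP. Control replicates 1 and 2 held the same deposited value to every digit. Exact ties between arrays also occurred in other probe sets, such as 200905_x_at of HLA-E, and where they come from was not tested. Its groups lay 0.18 apart and its difference was 0.21 (SE 0.056, 95% CI 0.079 to 0.33, adjusted p = 0.173). The other 3 probe sets of TAP2 overlapped between groups.

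TAPBP, which encodes tapasin, had levels of 10.17, 10.19 and 10.12 in control and of 10.19, 10.45 and 10.40 in S153E-RKIP on its brightest probe set, 208829_at. S153E-RKIP replicate 1 lay only 0.0042 above the highest control array, apart from the other two. The difference was 0.19 (SE 0.079, adjusted p = 0.358), and it was 0.27 without S153E-RKIP replicate 1. The other probe sets had differences of 0.15 (1555565_s_at) and 0.031 (210294_at), and both overlapped.

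PSMB8 and PSMB9 encode catalytic subunits that replace the constitutive ones when an immunoproteasome forms. PSMB9 read 9.24, 9.24 and 9.26 in control and 9.57, 9.54 and 9.49 in S153E-RKIP. The lowest S153E-RKIP array was 0.23 above the highest control array, the widest gap among the 23 probe sets. Tested over all probe sets, its difference was 0.29 (SE 0.058, 95% CI 0.16 to 0.42, adjusted p = 0.0656). PSMB8 read 9.64, 9.71 and 9.79 in control and 9.93, 9.79 and 9.90 in S153E-RKIP. S153E-RKIP replicate 2 lay just under control replicate 3, and the difference was 0.16 (SE 0.070, adjusted p = 0.378).

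**Figure D2:**
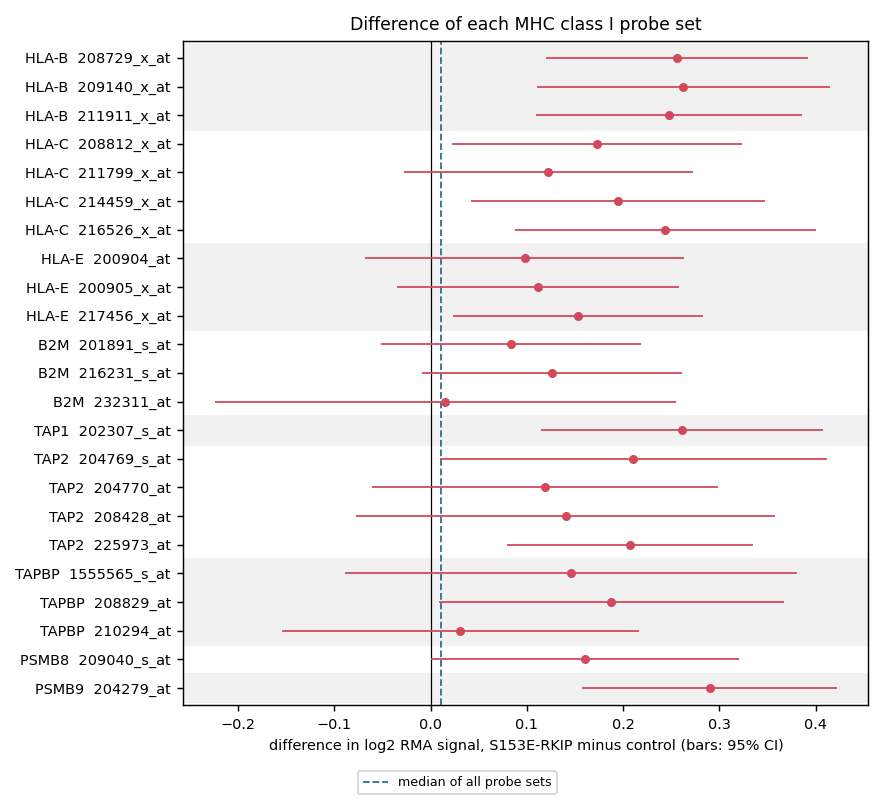
Difference in log2 RMA signal, S153E-RKIP minus control (horizontal axis), of each class I probe set with its 95% CI from the moderated variance, 3 arrays a group. The solid line is 0 and the dashed line the median of all probe sets (0.010); the 23 points lie between 0.015 and 0.29, with PSMB9, HLA-B and TAP1 farthest to the right.

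Other genes of the class I pathway were taken from 7 lists and fitted with 1 probe set a gene, a fit in which 1.9% of all genes were called. Of 11 measured chaperones, trimming enzymes and peptide editors none was called, 4 had a difference above 0 and the median was -0.023. CALR, the calreticulin of the loading complex, had a difference of 0.0022 (SE 0.054, 95% CI -0.12 to 0.12), a sign that turned with the mean of its probe sets, without _x_at probe sets, with equal medians and without control replicate 3 or S153E-RKIP replicate 2. TAPBPL, the tapasin-like peptide editor, had a difference of 0.061 (SE 0.071), and -0.0026 with the intensity trend removed. TPP2, a cytosolic peptidase, had the smallest p of that list, with a difference of -0.19 (adjusted p = 0.210).

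Of 9 measured proteasome partners none was called and the median was 0.044. PSMB10, the other immunoproteasome subunit that interferon induces, read 7.93, 8.01 and 8.01 in control and 8.12, 8.04 and 8.14 in S153E-RKIP, a difference of 0.12 (SE 0.059, adjusted p = 0.380). PSMB5, the constitutive subunit that PSMB8 replaces, had a difference of 0.13 (SE 0.058, adjusted p = 0.327). PSMB10 and PSMB5 parted the groups without overlap. PSMB6 and PSMB7 of the same list, named after their values were seen, had differences of 0.021 (SE 0.058) and 0.027 (SE 0.056), and both overlapped. That PSMB9 differed more than these genes was not tested.

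Of 15 measured transcriptional regulators none was called, 7 had a difference above 0 and 8 below, and the median was -0.0082. The largest difference in size was that of IRF9, named after its value was seen (-0.33, SE 0.13, adjusted p = 0.285), with overlapping groups. NLRC5, the class I transactivator, had a dim signal of 5.09, 5.26 and 5.26 in control and 5.26, 5.41 and 5.26 in S153E-RKIP, with a difference of 0.11 (SE 0.073, adjusted p = 0.506). The arrays that read 5.26 held exactly the same value. IRF1, an interferon-induced factor, had a difference of 0.14 (SE 0.060, adjusted p = 0.319) without overlap. RFXAP, a subunit of the RFX complex that binds MHC promoters, had one of 0.32 (SE 0.084, adjusted p = 0.119) on a probe set under the median level, and 0.087 on its other probe set.

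Of 12 interferon ligands, receptors and kinases none was called and the median was 0.025. SOCS3, a feedback inhibitor of cytokine receptors, had the smallest p, with a difference of -0.32 (SE 0.092, adjusted p = 0.159). Of 15 measured interferon gamma response genes 1 rose and none fell, and the median was 0.087. That gene was ICAM1, an adhesion molecule that NF-kB also induces, which read 7.97, 8.43 and 8.23 in control and 9.25, 9.44 and 9.44 in S153E-RKIP, a 2.25-fold rise (adjusted p = 0.00194). GBP1, a guanylate-binding protein named after its value was seen, had a difference of 0.31 (SE 0.070, adjusted p = 0.0804). It was called higher under both dim filters (0.0335 and 0.0421), after quantile normalisation again (0.0437) and with trend and robust estimation (0.0335). With the mean of its probe sets the difference was 0.18 (adjusted p = 0.162). GBP1 was not called with any array left out, the adjusted p then running from 0.125 to 0.264.

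Of 11 other class I and class I-like chains none was called and the median was 0.046. MICA, a stress-induced ligand of the NKG2D receptor, read 9.27, 9.34 and 9.41 in control and 9.11, 8.98 and 8.99 in S153E-RKIP. All 3 S153E-RKIP arrays lay below the control arrays, and the difference was -0.32 (SE 0.064, 95% CI -0.46 to -0.17, adjusted p = 0.0538). MICA was called lower in 6 of the alternative fits: with the mean of probe sets (0.0349), under the dim filters at the median level and at 6 (0.0202 and 0.0258), with equal medians (0.0298), with trend and robust estimation (0.0181) and with array weights (0.0440). It was not called with any array left out, the adjusted p then running from 0.0530 to 0.213. HLA-F and HLA-G, named after their values were seen, had 3 and 4 probe sets with differences of 0.13 to 0.25, all above 0 and none called, though HLA-G was called with trend and robust estimation in the gene fit (0.0449). Of these 7 probe sets 6 carry the suffix _x_at.

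Of 10 genes of surface inhibition and turnover, CD47 rose and the other 9 did not pass, and the median was -0.0093. CD47, the signal that restrains engulfment by macrophages, read 11.36, 11.33 and 11.38 in control and 11.78, 11.71 and 11.78 in S153E-RKIP. The difference was 0.40 (SE 0.055, adjusted p = 0.00975). Its call was lost without control replicate 1, 2 or 3 (0.0687, 0.0641 and 0.0562) and when its probe sets were averaged (0.23, adjusted p = 0.0666). Counted by probe set, 5 of the pathway's probe sets outside the members were called, 3 of ICAM1 and 2 of CD47, all higher. They come from only these 2 genes, in lists of 27 and 37 probe sets, and the other lists had none. Over all probe sets 1.05% were called and 0.366% were called higher.

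**Figure D3:**
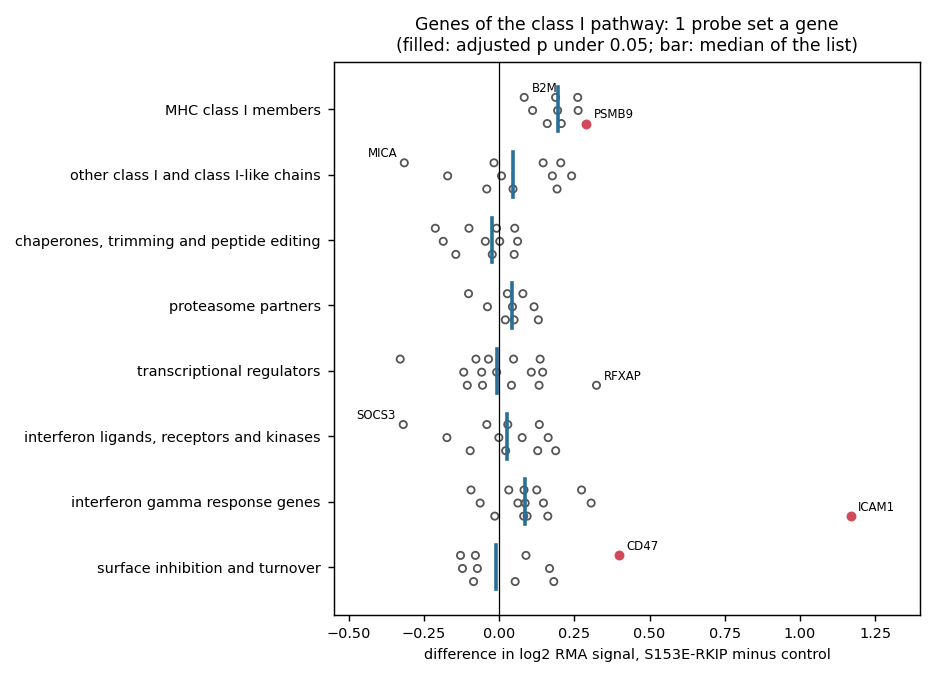
Difference in log2 RMA signal, S153E-RKIP minus control (horizontal axis), of the genes of 8 lists, 1 probe set a gene. Filled points are genes with an adjusted p under 0.05, open points the others, and the vertical bar is the median of the list; the 9 class I members all lie above 0 with a median of 0.19, while the medians of the other lists lie between -0.023 and 0.087.

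Position was described next, with the gene order of RefSeq. Between HLA-E and TAPBP, 107 other genes of the MHC were tested, and their median difference was 0.032, against 0.010 over all genes. Of these 107, 3 were called, where 1.9% of all genes were called and 0.688% were called higher. All 3 were higher: HLA-DRA, a class II chain (1.03, SE 0.17, adjusted p = 0.0237), HLA-DRB6 (0.41, adjusted p = 0.0216) and IER3, an immediate early gene (0.43, adjusted p = 0.0398). The call of HLA-DRA was lost without control replicate 1 or 3 or S153E-RKIP replicate 2 or 3 (adjusted p of 0.107, 0.117, 0.134 and 0.101). The call of IER3 was lost without control replicate 1, 2 or 3 or S153E-RKIP replicate 2 or 3 (0.178, 0.0786, 0.159, 0.149 and 0.114) and after quantile normalisation again (0.0637). The call of HLA-DRB6 was lost without control replicate 1 or 3 or S153E-RKIP replicate 1 or 3 (0.127, 0.114, 0.0639 and 0.0763) and with a replicate block (0.0563). Without _x_at probe sets, HLA-DRB6 had a difference of 0.047 (adjusted p = 0.769). Without HLA genes, 93 remained with a median of 0.025, of which 53 had a difference above 0, against 53.6% of all genes. The stretch was chosen after the values were seen.

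The genes whose pattern over the 6 arrays was most like the mean of the 9 members, each centred on its own mean, were sought among 3229 genes above the median level with a range of at least 0.3. The 5 with the highest Pearson correlation were IKBKE (0.998), SHISA2 (0.996), CXCL2 (0.995), ICAM1 (0.995) and PTX3 (0.995). IKBKE encodes a kinase of innate immune signalling and rose 1.54-fold (adjusted p = 0.00182). PTX3, a secreted pentraxin, rose by 0.48 (SE 0.068, adjusted p = 0.0104), a call lost without control replicate 1 or 3 or S153E-RKIP replicate 2 (0.0678, 0.0613 and 0.0582). CXCL2, a chemokine that attracts neutrophils, was read through an _x_at probe set. All 5 were higher on the S153E-RKIP arrays without overlap, and the correlations run over arrays that share the group difference. Within the members the correlation with their mean ran from 0.78 for TAPBP and PSMB8 to 0.97 for HLA-B.

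Markers of other cells that could bring class I signal were read in the same way. In a bulk sample fewer cells of a type and less RNA per cell cannot be told apart. Of 10 measured blood cell markers all 10 lay below the median level of all genes, at 3.93 to 6.41, and none was called. Their mean level per array ran from 5.05 to 5.12 in control and from 5.15 to 5.23 in S153E-RKIP. The median difference was 0.10, against 0.010 over all genes. Of the 10, 8 had a difference above 0 and 2 below, the largest being that of CD3E (0.29, adjusted p = 0.139, without overlap). Dim probe sets were more often higher in general: 29280 of all 54613 had a difference above 0, against 11657 of the 27306 above the median level. PTPRC, the pan-leukocyte marker CD45, had a level of 3.93. Of 10 fibroblast and endothelial markers 8 lay below the median level and none was called, with mean levels of 5.42 to 5.50 and 5.44 to 5.56. The part of such cells in the class I values was not tested.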

How the data were processed

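Transcript levels were measured on 6 arrays, 3 control and 3 S153E-RKIP, from 1 µg of total RNA each. The authors deposited log2 values, summarised by RMA per the submitters' processing notes. Its version was not given in the sources used here. RMA normalises arrays together, so a shift common to most genes is not seen. The labels' protocols name a whole-transcript labelling kit for a 3' expression array.

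The table holds 54675 rows, of which 62 control probe sets were left out. Symbols came from the platform annotation: 41097 probe sets have 1 symbol, 1801 several and 11777 none, and 41043 were matched to RefSeq by gene identifier. No filter on dim probe sets was applied. Groups were taken from sample titles. A linear model per probe set was fitted in limma 3.58.1 (R 4.3.3; lmFit, eBayes, two-sided) with Benjamini-Hochberg adjustment over all 54613, called at an adjusted p under 0.05, and again over 19775 genes, each by its brightest probe set. Pathway lists and medians use the gene fit. Standard errors come from the moderated variance.

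The members and lists were chosen with earlier results of these data known. Named beside the members are PEBP1, HMGA2, some pathway genes always (NLRC5, IRF1, PSMB10, CALR and TAPBPL among them), up to 4 called genes a list or else the one with the smallest p, and the 5 genes most like the members. Same-numbered replicates had correlations of deviations of 0.13, 0.26 and -0.044, so numbers were not taken to pair samples. Promoters were searched in the 250 bases before the start, and HLA-B and HLA-C were aligned with Biopython 1.88. The fit was tested on simulated data. Figures were drawn with matplotlib 3.10.9.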

Additional observations from a re-analysis of the deposited data

How the results depend on the processing

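No member probe set was called with any 1 array left out (0 to 0), with array weights, with equal medians, with the replicate block, at an adjusted p under 0.01 or without _x_at probe sets. The number of member probe sets called was 1 with only those above the median level, with quantile normalisation again and with the intensity trend removed by loess, 2 with only those above 6 on at least 3 arrays, and 6 by eBayes with trend and robust estimation (3 of HLA-B and 1 each of HLA-C, TAP2 and PSMB9). With 1 probe set a gene it was 1, and with a gene's probe sets averaged 2. Member genes called, 1 of 9, were 2 with the mean of probe sets, 4 under either dim filter (HLA-B, TAP1, TAP2 and PSMB9), 3 with trend and robust estimation, and 0 with equal medians, with a replicate block, at an adjusted p under 0.01 and with any array left out (0 to 0). The filters test fewer features, and the standard errors changed as well. That of PSMB9 204279_at, 0.058, was 0.053 above the median level and 0.051 above 6 on at least 3 arrays. Why the counts differed between fits was not tested. The median difference of the member probe sets, 0.16, was 0.19 with the brightest probe sets, 0.20 after quantile normalisation again, 0.12 with equal medians, 0.19 with loess and 0.14 to 0.19 with an array left out, and in the fits that held all 23 member probe sets 21 to 23 had a difference above 0.

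Pathway probe sets called, 5, were 2 with 1 probe set or the mean a gene, 8 above 6 on 3 arrays, 8 with trend and robust estimation, 3 at 0.01 and 2 to 5 with an array left out. Over all features 574 probe sets and 376 genes were called, against 939 and 600 with trend and robust estimation, 245 and 147 at 0.01, and 209 to 450 and 124 to 303 with an array left out. No PEBP1 or HMGA2 probe set was called in any fit. The sign turned for the dim B2M 232311_at (-0.024, -0.022, -0.028 and -0.0016 with quantile normalisation again, equal medians, loess and array weights, and -0.079 to 0.13 with an array left out), for TAPBP 210294_at (-0.0061 with equal medians, -0.0045 with loess, -0.042 to 0.11 with an array left out), for CALR (-0.014 with the mean of probe sets, -0.057 without _x_at, -0.035 with equal medians, -0.019 to 0.013 with an array left out) and for TAPBPL (-0.0026 with loess). With the replicate block 573 probe sets and 332 genes were called, and the smallest adjusted p among member probe sets was 0.127. Detection calls above background were not used here, so dim probe sets have no known floor.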
